A study of Mus musculus with 6 samples.

Results

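AP-1 and early growth response (EGR) factors are transcription factors that cells make quickly after a growth factor, cytokine, stress or mechanical signal. The 10 genes described here were taken by name from the deposited expression table: the Fos family (Fos, Fosb, Fosl1 and Fosl2), the Jun family (Jun, Junb and Jund), the zinc finger genes Egr1 and Egr2, and Atf3. All 10 had a row among the 19739 genes of the table. The cells were mesenchymal stromal cells taken from mouse bone marrow (BMSCs, primary cells), which can form bone, fat and cartilage cells. One group had been given an adeno-associated virus with the 3KR form of FTO (AAV-FTO-3KR, 3 libraries), and the other a virus with the WT form (AAV-FTO-WT, 3 libraries). FTO is an RNA demethylase that removes N6-methyladenosine (m6A), and the study's title concerns its SUMOylation. The labels do not spell out 3KR, name no promoter or mouse strain, and do not state whether replicates are different animals, cultures or repeat preparations. The p-values therefore rest on the spread between libraries, part or all of which can be technical.

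The values are from input libraries, which were sequenced without the m6A immunoprecipitation and give transcript levels, in FPKM (fragments scaled to transcript length and library size). Cells without a virus were not analysed here. No read counts could be recovered from the table, so depth could not be given. Library sums ran from 408605 to 421234 FPKM in 3KR and from 390527 to 391767 FPKM in WT. Fto transcripts, which both vectors carry, averaged 443 ± 24.8 FPKM in 3KR and 258 ± 9.84 FPKM in WT (SD, n = 3 each), so the form and the amount of Fto transcript differed together. Of 10 stromal markers, all were detected, with a summed level of 632 to 645 FPKM in 3KR and 1196 to 1228 FPKM in WT. Of these, 6 were called lower and 2 higher, beside 14% and 46.7% of all tested genes. Cxcl12 (70.3 FPKM in 3KR and 409 in WT) and Ly6a (102 FPKM in 3KR and 308 in WT) made up most of the lower sum, while Lepr (16.9 FPKM in 3KR and 3.68 in WT) and Cd44 (101 FPKM in 3KR and 50.2 in WT) were higher. The 11 macrophage and monocyte markers in the table summed to 1.80 to 3.18 FPKM in 3KR and 10.3 to 11.4 FPKM in WT, all 11 with a lower mean in 3KR. Mpeg1 averaged 0.854 FPKM in 3KR and 6.79 FPKM in WT and was called lower, Cd68 averaged 0.700 FPKM in 3KR and 1.16 FPKM in WT and was not called (limma adjusted p = 0.08363), and Ptprc, the pan-leukocyte marker, averaged 0.0219 FPKM in 3KR and 0.119 FPKM in WT. The 5 endothelial markers summed to 1.84 to 2.12 FPKM in 3KR and 5.10 to 6.25 FPKM in WT, mostly through Tek (1.46 FPKM in 3KR and 5.14 in WT, called lower); Kdr had the higher mean in 3KR (0.335 FPKM in 3KR and 0.139 in WT), and Emcn was listed at 0 in every 3KR library and averaged 0.0132 FPKM in WT. Ptprc, Kdr and Emcn, too low for the test, were named with their values known. Their part in the results on the AP-1 and EGR genes was not tested, and in bulk RNA fewer cells of a type and less RNA per cell cannot be told apart.

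An AP-1 complex is a dimer of basic leucine zipper proteins. Fos proteins cannot pair with each other and need a Jun partner, whereas Jun proteins can also pair among themselves. The members differ in strength: Fos, Fosb and Jun carry strong activation domains, while Fosl1 (FRA-1) and Fosl2 (FRA-2) lack the strong one of Fos, and Junb and Jund can restrain Jun in some settings. In the mouse skeleton AP-1 has well-known roles. Mice without Fos lack osteoclasts, and mice that overexpress Fosl1 or a short form of Fosb gain bone mass. Egr1 and Egr2 bind GC-rich sites through zinc fingers, and their activity is restrained by the NAB corepressors.

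Promoter windows were read because several of these genes are known to be switched on through the same kinds of site, and 5 of the 10 genes were called lower. Whether such sites bear on the calls was not tested. The RefSeq table (GRCm38.p6) held a window from 250 bases before to 50 after the annotated start for 8 of the 10 genes. Shown are the 120 bases before the start, 5′ to 3′ on the gene's strand, for Jun and Egr2, whose windows matched a full site searched for, and for Fos, the prototype of the set. In Jun (chr4:95052223-95052342, minus strand) the longer capitals mark TGACATCA, an AP-1-like site. In Egr2 (chr10:67537749-67537868, plus strand, 1 of 5 annotated starts) they mark a CArG box, the element bound by serum response factor (SRF). In Fos and Egr2 the 5-letter capitals mark TGACG, the half-site of a cyclic AMP response element (CRE), or its reverse complement (Fos: chr12:85473770-85473889, plus strand).
Jun: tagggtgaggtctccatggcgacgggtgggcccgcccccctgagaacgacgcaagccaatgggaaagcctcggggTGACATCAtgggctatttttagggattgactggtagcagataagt
Egr2: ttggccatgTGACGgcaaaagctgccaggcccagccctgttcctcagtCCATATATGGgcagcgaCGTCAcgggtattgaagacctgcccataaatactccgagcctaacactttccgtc
Fos: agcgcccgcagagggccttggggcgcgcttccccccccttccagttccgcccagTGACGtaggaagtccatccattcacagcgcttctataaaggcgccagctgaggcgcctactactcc

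Both strands of each whole window were searched. TGACATCA lay in the Jun window, 45 to 38 bases before the start, and in 3.62% of all 32851 windows of the table. A CArG box lay in 4 of the 5 Egr2 windows, which overlap in part, and in 1.63% of all windows. Overlapping Egr2 windows hold the same box, CCATATATGG, which is thus counted more than once, and another window holds CCTTTTTTGG. TGACG lay in the windows of Fos, Fosb, Junb, Atf3 and Egr2, and in 20.8% of all windows; it was added after the windows had been read. Of the 5 genes called lower, Fosl2 and Jund had no match to any motif in their windows. Egr1 was not searched, and the Fos window held the half-site alone. Sites further than 250 bases before the start were not searched for any gene, so a site missing from a window can lie outside it. None of the 8 genes' windows held TGACTCA or TGAGTCA (5.2% of all windows), the full CRE TGACGTCA (1.79%), or the EGR site GCGTGGGCG (0.612%). TGACG is contained in the full CRE. These are matches of letters, and the data hold no measure of binding.

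In 3KR cells 5 of these genes were lower than in WT cells, Jund by the largest factor, and Fosl1 alone was called higher. Of the 10 genes, 8 reached 1 FPKM in at least 3 libraries and were tested within a fit over 10985 genes (limma on log2(FPKM + 1), Benjamini-Hochberg adjusted p under 0.05). Of these 8, 5 were called lower (Fos, Fosl2, Jund, Egr1 and Egr2), 1 was called higher (Fosl1) and 2 were not called (Jun and Junb). Among all tested genes, 14% were called lower and 46.7% higher, and 60.6% were called in either direction. The 6 calls held under all 4 scalings tried, under which 13.9% of all tested genes were called lower and 21.5% higher. The groups did not overlap for 7 of the 8 genes, beside 66.7% of all tested genes, and for 6 of the 8 with 3KR lower, beside 15.5%. Egr2 passed the filter through its WT libraries alone, where it was higher, so its lack of overlap followed from the filter. Neither its call nor its lack of overlap therefore adds to the counts above. The median tested gene was higher in 3KR by 0.15 on the log2 scale, a ratio of 1.11, and fold changes called relative have this shift subtracted.

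**Figure D1:**
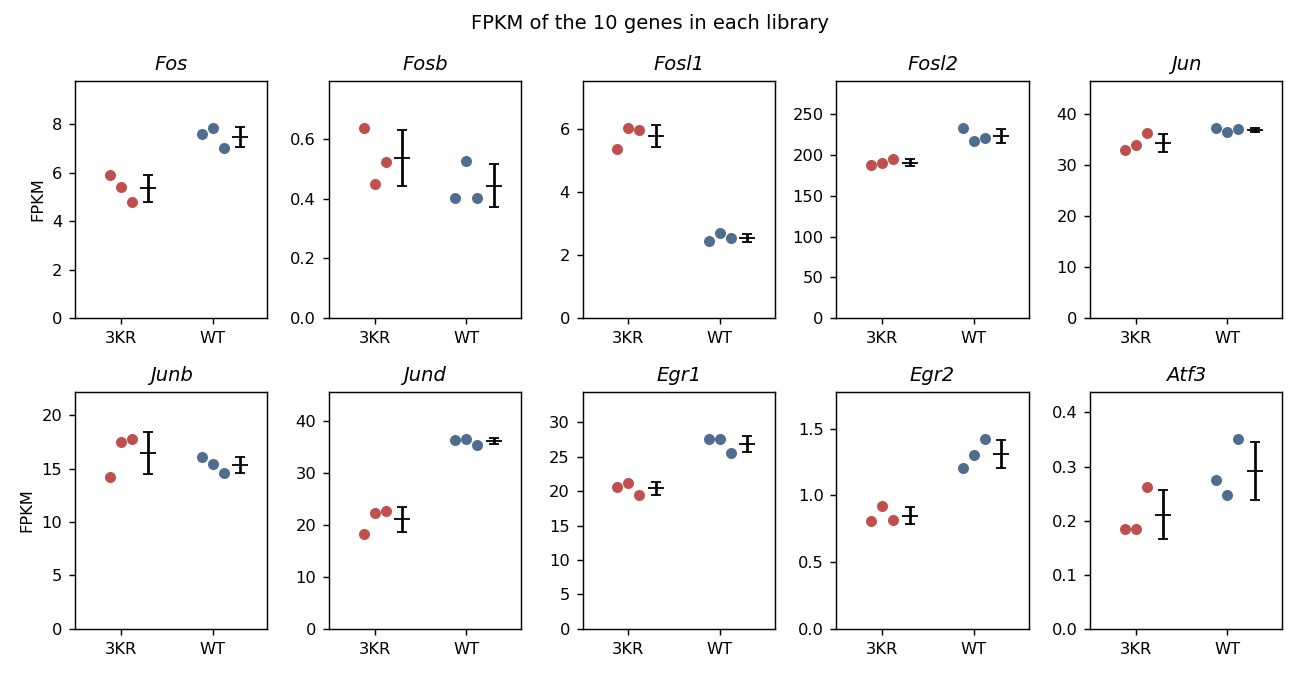
FPKM (vertical axes, each from 0) of the 10 genes in the 3KR and WT libraries, with 1 point per library and a bar for the mean ± SD of 3 libraries. The groups are apart for Fosl1, with 3KR higher, and for Fos, Fosl2, Jun, Jund, Egr1 and Egr2, with 3KR lower; they overlap for Fosb, Junb and Atf3.

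The order of the levels was similar in both groups, with Fos and Fosl1 changing places. Fosl2 was by far the most abundant, the 244th gene of the table by mean FPKM, followed by Jun (1946th), Jund (2417th), Egr1 (2829th) and Junb (3798th). Fos (6445th) and Fosl1 (7720th) were low, and Egr2 (10737th), Fosb (11939th) and Atf3 (12877th) were near or under 1 FPKM. In 3KR, Jund (18.3 to 22.6 FPKM) lay wholly below Jun (32.9 to 36.3) and overlapped Egr1 (19.4 to 21.2), whereas in WT Jund (35.5 to 36.5) and Jun (36.4 to 37.2) overlapped. In 3KR, Fosl1 (5.38 to 6.02 FPKM) and Fos (4.77 to 5.89) overlapped, whereas in WT Fos (6.99 to 7.82) lay wholly above Fosl1 (2.45 to 2.70).

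Fos encodes c-Fos, the prototype immediate-early gene product. It was at 5.89, 5.39 and 4.77 FPKM in 3KR, against 7.58, 7.82 and 6.99 FPKM in WT. Every 3KR library lay below every WT library. The level was 1.40-fold lower in 3KR, a log2 fold change of -0.42 ± 0.07 (SE) and of -0.57 relative to the median gene (limma adjusted p = 0.001743).

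Fosl2 encodes FRA-2, a Fos protein made in osteoblasts and stromal cells. It was at 188, 190 and 195 FPKM in 3KR, against 233, 217 and 221 FPKM in WT. The groups did not overlap, and the difference was the smallest among the called genes, 1.17-fold lower in 3KR (log2 fold change -0.23 ± 0.04, limma adjusted p = 0.001114). In FPKM it was the largest, since the means were 191 ± 3.71 in 3KR and 224 ± 8.18 in WT (SD, n = 3 each).

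Fosl1 encodes FRA-1, which is typically induced later and held longer than Fos. It was at 5.38, 6.02 and 5.96 FPKM in 3KR, against 2.45, 2.70 and 2.53 FPKM in WT. The groups were far apart relative to their spread. The level was 2.26-fold higher in 3KR, a log2 fold change of 0.93 ± 0.06 and of 0.78 relative to the median gene (limma adjusted p = 7.015e-06). In the RefSeq annotation Fosl1 overlaps Ccdc85b, and the counting is not stated to use strand, so reads of the pair may not be separable. Ccdc85b itself averaged 3.09 ± 0.730 FPKM in 3KR and 1.64 ± 0.134 FPKM in WT (SD, n = 3 each). It was called higher, as Fosl1 was (limma adjusted p = 0.003527), also under all 4 scalings. How far its reads enter the Fosl1 level was not tested.

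Fosb, a close relative of Fos, was at 0.634, 0.449 and 0.524 FPKM in 3KR, against 0.403, 0.525 and 0.402 FPKM in WT. The groups overlapped. It was too low for the filter, and in a fit without a filter its log2 fold change was 0.09 ± 0.06 (limma adjusted p = 0.3218).

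Jund encodes JunD, the Jun protein that resting cells usually keep at a steady level. It was at 18.3, 22.2 and 22.6 FPKM in 3KR, against 36.4, 36.5 and 35.5 FPKM in WT. Every 3KR library lay far below the WT libraries, and replicate 1 of 3KR was the lowest. The level was 1.72-fold lower in 3KR, a log2 fold change of -0.76 ± 0.08 and of -0.91 relative to the median gene (limma adjusted p = 7.247e-05). This was the largest fall among the 8 tested genes under each of the 4 scalings tried.

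Jun encodes c-Jun, the main partner of the Fos proteins. It was at 32.9, 33.9 and 36.3 FPKM in 3KR, against 37.2, 36.4 and 37.1 FPKM in WT. The groups came close without overlapping. The log2 fold change was -0.10 (95% interval -0.20 to 0.003) with a limma adjusted p of 0.08518, so Jun was not called as deposited. It was called lower under the 3 other scalings, where 3KR values came out lower relative to WT, at a log2 fold change of -0.18 with libraries rescaled to the same sum, -0.27 after median ratio scaling and -0.19 after quantile normalization (limma adjusted p = 0.005484, 6.458e-04 and 0.004845). Under these scalings 18.1%, 24.1% and 19.9% of all tested genes were called lower. It was also called lower without replicate 3 of 3KR, the highest of the 3 (-0.14, limma adjusted p = 0.02674).

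Junb encodes JunB, a Jun protein needed for normal bone formation in mice. It was at 14.2, 17.5 and 17.8 FPKM in 3KR, against 16.0, 15.4 and 14.6 FPKM in WT. One 3KR library, replicate 1, lay below every WT library, and the other 2 lay above them. The log2 fold change was 0.09 (95% interval -0.10 to 0.28, limma adjusted p = 0.3627), its sign turned under median ratio scaling (-0.07) and quantile normalization (-0.03), and without replicate 1 of 3KR it was called higher (0.19, limma adjusted p = 0.01806).

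Egr1, the prototype EGR factor, was at 20.6, 21.2 and 19.4 FPKM in 3KR, against 27.5, 27.5 and 25.5 FPKM in WT. The groups were well apart. The level was 1.32-fold lower in 3KR, a log2 fold change of -0.38 ± 0.05 and of -0.53 relative to the median gene (limma adjusted p = 3.456e-04).

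Egr2 (Krox20), a relative of Egr1 with known roles in nerve myelination and in bone, was at 0.811, 0.923 and 0.813 FPKM in 3KR, against 1.21, 1.30 and 1.42 FPKM in WT. It was 1.54-fold lower in 3KR, and the groups did not overlap (log2 fold change -0.32 ± 0.07, limma adjusted p = 0.004892). In the fit without a filter, where its inclusion does not depend on its level, the adjusted p was 0.007459, and 9.25% of the 19026 genes of that fit were called lower.

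Atf3, a stress-induced factor of the ATF family that can pair with Jun proteins, was at 0.184, 0.185 and 0.263 FPKM in 3KR, against 0.276, 0.248 and 0.351 FPKM in WT. The groups overlapped at these low levels. In the fit without a filter the log2 fold change was -0.09 ± 0.04 (limma adjusted p = 0.1531).

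**Figure D2:**
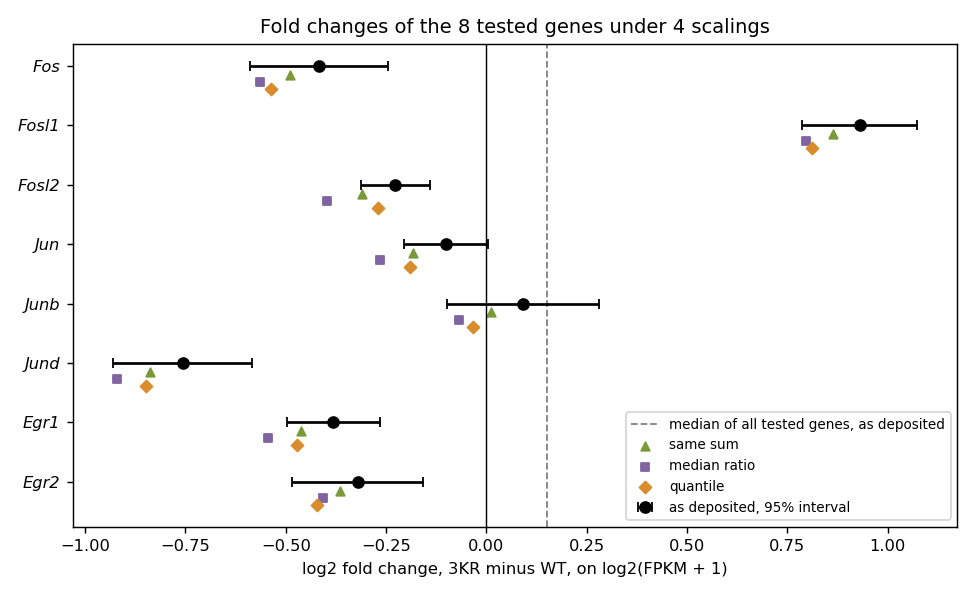
Log2 fold change (3KR minus WT, on log2(FPKM + 1), horizontal axis) of the 8 tested genes, with its 95% interval as deposited (black) and the point estimates under the 3 other scalings. Fosl1 lies above 0 and above the median of all genes under each, Fos, Fosl2, Jund, Egr1 and Egr2 lie below 0 under each, and Junb changes sign.

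Shares within a family do not depend on a single scaling factor per library (quantile normalization is not of that kind, and shares were not computed after it). FPKM is per length, so members were set side by side, although the lengths used are not known. Levels of different genes are therefore compared only approximately. Jund made up 28.0%, 30.2% and 29.5% of the summed Jun family FPKM in 3KR, against 40.6%, 41.3% and 40.7% in WT. The share of Jun was 47.9 ± 2.16% in 3KR and 41.8 ± 0.697% in WT, and that of Junb was 22.9 ± 1.02% in 3KR and 17.4 ± 0.582% in WT (SD, n = 3 each). Thus Jun held the largest share in 3KR, while in WT Jun and Jund held nearly equal ones. The summed level of the family was 71.9 ± 5.84 FPKM in 3KR and 88.3 ± 1.22 FPKM in WT.

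The ratio of Jund to Junb was 1.29, 1.27 and 1.27 in 3KR, against 2.27, 2.37 and 2.43 in WT. It varied less among the 3KR libraries than either level did, and both genes were lowest in replicate 1. The ratio of Jund to Jun was 0.612 ± 0.0507 in 3KR and 0.979 ± 0.0229 in WT (SD, n = 3 each), again without overlap.

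Fosl2 took 94.2 ± 0.268% of the summed Fos family FPKM in 3KR and 95.5 ± 0.321% in WT, so it outweighed the other 3 members in every library. The share of Fosl1 was 2.69%, 2.99% and 2.89% in 3KR, against 1.01%, 1.18% and 1.09% in WT. The share of Fos was 2.64 ± 0.317% in 3KR and 3.19 ± 0.214% in WT. The ratio of Fos to Fosl1 was 1.09, 0.895 and 0.801 in 3KR, against 3.09, 2.90 and 2.77 in WT, so the pair was near parity in 3KR and Fos was well ahead in WT. The Fosl1 values in these shares and ratios may include reads of Ccdc85b, as given above. The summed family was at 203 ± 3.36 FPKM in 3KR and 234 ± 8.01 FPKM in WT (SD, n = 3 each).

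**Figure D3:**
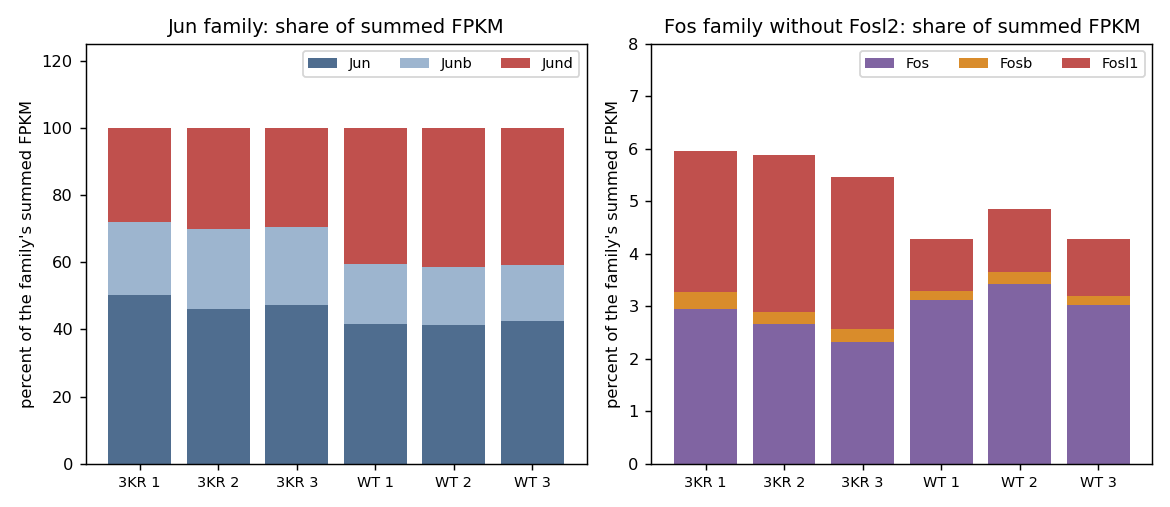
Share of each gene in the summed FPKM of its family (percent, vertical axes from 0) in each of the 3 3KR and 3 WT libraries, for the Jun family (left) and the Fos family without the dominant Fosl2 (right, on its own scale). The Jund segment is 28.0% to 30.2% in 3KR and 40.6% to 41.3% in WT, and the Fosl1 segment 2.69% to 2.99% in 3KR and 1.01% to 1.18% in WT.

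Other genes of these pathways were taken from lists of known partners, regulators, kinases, phosphatases, co-induced genes and targets. Of 12 further AP-1 and basic leucine zipper partners, 8 were tested. As deposited 4 of these fell and 3 rose, beside 14% and 46.7% of all tested genes. The median log2 fold change of the 8 was -0.05, beside 0.15 for all tested genes. Maff, a small Maf protein, rose to 16.8 ± 0.885 FPKM in 3KR, against 7.15 ± 0.475 FPKM in WT, and Maf, a large Maf protein, to 69.2 ± 2.14 FPKM in 3KR, against 54.9 ± 2.12 FPKM in WT (SD, n = 3 each; limma adjusted p = 2.111e-06 and 3.106e-04). Jdp2, which binds Jun and represses AP-1 sites, fell to 2.58 ± 0.183 FPKM in 3KR, against 4.86 ± 0.200 FPKM in WT (limma adjusted p = 3.418e-05). Batf, a Jun partner that lacks an activation domain, fell to 1.22 ± 0.0150 FPKM in 3KR, against 2.32 ± 0.234 FPKM in WT (limma adjusted p = 2.355e-04).

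Among the other EGR genes and their corepressors, Egr3 (0.230 FPKM in 3KR and 0.328 in WT) and Egr4 were too low for the filter. Egr4 was at 0.223, 0.138 and 0.162 FPKM in 3KR, against 0, 0.0219 and 0 FPKM in WT, without overlap. In the fit without a filter it was higher in 3KR (log2 fold change 0.22, limma adjusted p = 0.003444), opposite to Egr1 and Egr2. In that fit 4978 of 19026 genes were called higher. The Egr4 levels are near 0 and their counting error is unknown. Nab2, a corepressor of EGR proteins that EGR1 also induces, rose to 29.5 ± 2.51 FPKM in 3KR, against 20.3 ± 0.237 FPKM in WT (limma adjusted p = 1.816e-04). Its relative Nab1 fell to 6.04 ± 0.154 FPKM in 3KR, against 6.82 ± 0.156 FPKM in WT (SD, n = 3 each; limma adjusted p = 0.0246).

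The factors known to switch on Fos and Egr1 form the next list. Of 8 tested SRF, TCF, MRTF and CREB genes, 5 rose as deposited, beside 46.7% of all tested genes, and 3 were not called. The median log2 fold change was 0.16, beside 0.15 for all tested genes, so the list did not stand apart in its median. Under all 4 scalings 21.5% of all tested genes were called higher, and 3 of the 5 rose. Those 3 were Srf itself, at 11.4 ± 0.327 FPKM in 3KR and 9.10 ± 0.280 FPKM in WT (limma adjusted p = 9.816e-04), and the SRF coactivators Mrtfa (ratio 1.29, adjusted p = 0.001227) and Mrtfb (ratio 1.42, adjusted p = 1.298e-04). Elk1, a TCF that ERK phosphorylates, was called higher as deposited (ratio 1.17, limma adjusted p = 0.0172) but not under every scaling. Creb1, which encodes the factor that binds the CRE and is named here with its values known, had 1.05, 3.70 and 4.005 FPKM in 3KR, against 3.46, 4.02 and 3.66 FPKM in WT, with replicate 1 of 3KR far below the other libraries, and was not called (limma adjusted p = 0.3067).

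Of 15 genes of the ERK, JNK and p38 kinases, 13 were tested, of which 9 rose and 1 fell as deposited, and 2 rose and 1 fell under all 4 scalings. Their median log2 fold change was 0.13, beside 0.15 for all tested genes, of which 46.7% were called higher as deposited and 21.5% under all 4 scalings, so as a group the kinases gave no result of their own. Map2k3, which activates p38, was at 26.5 ± 0.523 FPKM in 3KR and 15.8 ± 1.34 FPKM in WT (limma adjusted p = 2.789e-05), and Mapk3, which encodes ERK1, at 56.7 ± 2.58 FPKM in 3KR and 45.6 ± 0.273 FPKM in WT (SD, n = 3 each; limma adjusted p = 4.026e-04). The calls of Mapk8, which encodes JNK1 (ratio 1.17), and Map2k7, which activates JNK (ratio 1.19), did not hold under every scaling.

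Of 10 dual specificity phosphatases, which inactivate these kinases, 8 were tested, with a median log2 fold change of 0.20. Under all 4 scalings 2 rose and 2 fell, beside 21.5% and 13.9% of all tested genes. Dusp6, an ERK phosphatase induced by ERK signalling, rose to 67.1, 73.2 and 69.1 FPKM in 3KR, against 33.8, 39.9 and 39.9 FPKM in WT (limma adjusted p = 1.882e-05). Dusp1, an immediate-early gene itself, rose to 5.71 ± 0.397 FPKM in 3KR, against 3.15 ± 0.281 FPKM in WT (limma adjusted p = 9.025e-05). Dusp8 and Dusp16, which act on JNK and p38, fell (ratios 0.588 and 0.776, limma adjusted p = 0.00287 and 0.001561).

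Other immediate-early genes, which the same signals induce, moved in both directions. Of 26 listed, 24 were tested, of which 12 rose and 3 fell as deposited and 9 rose and 3 fell under all 4 scalings, with a median log2 fold change of 0.17. The counts as deposited lie near the shares of all tested genes (46.7% higher and 14% lower). Under all 4 scalings 21.5% of all tested genes were called higher and 13.9% lower. Nr4a3, counted in the 12 and in the 9, passed the filter through 3KR alone, where it was higher. Tiparp, an ADP-ribosyltransferase induced through the aryl hydrocarbon receptor, rose to 24.0, 23.6 and 24.0 FPKM in 3KR, against 7.02, 7.37 and 7.03 FPKM in WT (limma adjusted p = 4.989e-08). The matricellular Ccn1 (Cyr61) was at 83.2 ± 3.29 FPKM in 3KR and 38.9 ± 1.07 FPKM in WT, and Ccn2 (Ctgf) at 315 ± 13.0 FPKM in 3KR and 199 ± 5.54 FPKM in WT (SD, n = 3 each; limma adjusted p = 3.52e-07 and 4.222e-06). Klf10, a TGF-beta-inducible zinc finger gene, was 1.92-fold higher in 3KR (limma adjusted p = 3.007e-06). The 3 that fell, chosen for naming after their values were seen, were Ier2 (5.32 FPKM in 3KR and 6.96 in WT), Nr4a2 (4.09 FPKM in 3KR and 5.81 in WT) and Rhob (55.3 FPKM in 3KR and 69.0 in WT).

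Known AP-1 target genes moved both ways. Of 17 listed, 15 were in the table and tested, with a median log2 fold change of 0.27. As deposited 8 rose and 6 fell, beside 46.7% and 14% of all tested genes. Under all 4 scalings 6 rose and 6 fell, beside 21.5% and 13.9%. Mmp9 and Il6, 2 of the 6 that fell, passed the filter through WT alone, where they were higher, so they add nothing to that count. The collagenase gene Mmp13, a classic Fos and Jun target in bone, fell to 139, 135 and 133 FPKM in 3KR, against 829, 848 and 788 FPKM in WT (limma adjusted p = 4.793e-09). Mmp3, the stromelysin gene, was 0.181 times its WT level in 3KR, and Ccl2, a monocyte chemokine, 0.305 times (limma adjusted p = 2.679e-08 and 2.678e-07). In the other direction Ccnd1, which encodes cyclin D1, rose to 288 ± 11.0 FPKM in 3KR, against 96.7 ± 1.43 FPKM in WT (SD, n = 3 each; limma adjusted p = 3.303e-08). Further genes of the list that rose, named after their values were seen, included Hmox1 (213 FPKM in 3KR and 89.1 in WT), Cd44 (101 FPKM in 3KR and 50.2 in WT) and Plau (5.32 FPKM in 3KR and 2.34 in WT).

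Of 9 listed EGR targets, 7 were tested, with a median log2 fold change of 0.33. As deposited 5 rose and 1 fell, beside 46.7% and 14% of all tested genes. Under all 4 scalings 21.5% and 13.9% of all tested genes rose and fell, and of the list 3 rose and 1 fell. The 3 were Icam1, a leukocyte adhesion molecule (59.0 ± 0.772 FPKM in 3KR and 32.7 ± 1.35 FPKM in WT, limma adjusted p = 1.235e-06), Pdgfa, a growth factor chain (10.7 ± 0.882 FPKM in 3KR and 6.91 ± 0.145 FPKM in WT, limma adjusted p = 1.355e-04), and Nab2, given above. F3, which encodes tissue factor, fell to 62.1 ± 0.401 FPKM in 3KR, against 79.9 ± 2.58 FPKM in WT (SD, n = 3 each; limma adjusted p = 8.387e-05).

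**Figure D4:**
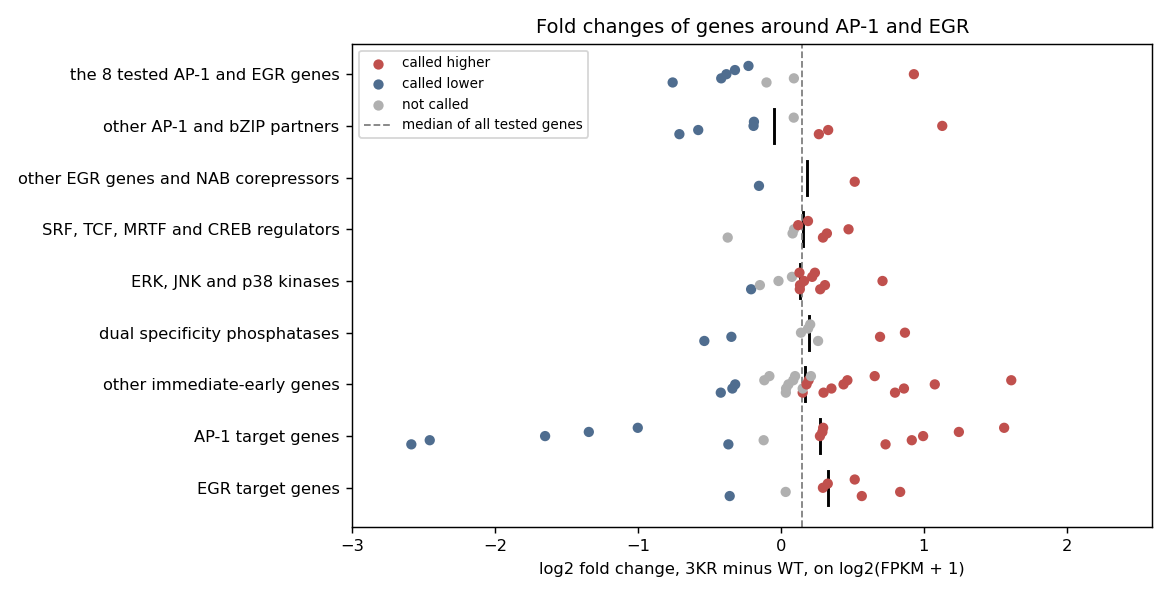
Log2 fold change (3KR minus WT, on log2(FPKM + 1), horizontal axis) of each tested gene of the AP-1 and EGR set and of 8 lists around it, coloured by its call as deposited; black bars are list medians and the dashed line is the median of all tested genes, 0.15. The median of the partner list lies below that line at -0.05, and the medians of the other 7 lists lie between 0.13 and 0.33.

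Among the genes whose pattern over the 6 libraries was most like that of Fos were Map1b and Sox11 (Pearson r = 0.992 each on the log2 scale). For Egr1 they included Daam1 and Adamts4 (r = 0.998 and 0.995), and for Jun they were Ispd, Hsd17b4 and Ecm1 (r = 0.990, 0.988 and 0.983). With 6 libraries in 2 groups such values can largely follow the difference between the groups, and how far they do was not tested. In all, 603 genes reached r over 0.95 with Egr1, 137 with Fos and 30 with Jun.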

How the data were processed

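Poly(A) RNA from 6 input libraries of an m6A assay was measured, 3 of 3KR and 3 of WT, grouped by title. The authors deposited 1 FPKM value per gene and library, per the file headers. No source used here names the aligner, the quantifier or the annotation. The build named in the submitters' processing notes, GRCh38, is human, while the organism is mouse, so positions are given for RefSeq sequences (GRCm38.p6) alone, matched by symbol. Immunoprecipitated libraries were not used here. The table had 19763 rows; 24 of them repeated a gene name, and of such rows the one with the higher mean stayed. A search for whole-read steps among 4203 genes under 2 FPKM found at most 3 sharing a ratio between libraries (equal to 6 significant digits), so depth is unknown and no counting interval is given.

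Genes at 1 FPKM or more in at least 3 libraries (10985) were compared as log2(FPKM + 1) with limma 3.58.1 in R 4.3.3 (empirical Bayes, intensity trend) and Benjamini-Hochberg adjustment over all of them, at a threshold of 0.05. This scale understates changes of low genes. The 4 scalings were as deposited, the same sum, median ratio and quantile. With 3 against 3 libraries an exact permutation test cannot go below p = 0.1 (20 splits), so none is given for single genes. Named were all 10 genes, the 4 with the smallest p in each list (all where fewer were tested) and, for Fos, Jun and Egr1, the 3 most correlated genes, some of which are not reported here; others are said to be chosen later. In the lists, 5 symbols were matched by older names in the table. The members, lists and family ratios were chosen with earlier results of these data known. Alternatives were a pseudocount of 0.1, 2 other filters, the scalings, a replicate block, library weights, no trend, and leaving out each library.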

Additional observations from a re-analysis of the deposited data

How the results depend on the processing

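Fos, Fosl2, Jund, Egr1 and Egr2 were called lower and Fosl1 higher under every alternative in which they were tested (15, and 14 for Egr2, which the filter at 5 FPKM leaves out). Fosl1 passed the filter at 5 FPKM through its 3KR libraries alone, where it was higher, so that alternative adds nothing for Fosl1. Egr2 passed the filter at 1 FPKM through its WT libraries alone, so for Egr2 only the fit without a filter is free of this. The log2 fold change ranged from -0.92 to -0.66 for Jund, from -0.56 to -0.35 for Fos, from -0.54 to -0.35 for Egr1, from -0.40 to -0.20 for Fosl2, from -0.57 to -0.29 for Egr2 and from 0.80 to 1.15 for Fosl1. Jun became called lower at the same sum (-0.18), after median ratio scaling (-0.27) and after quantile normalization (-0.19); leaving out each library gave -0.140 to -0.070. Junb turned to -0.069 after median ratio scaling and -0.033 after quantile normalization; leaving out each library gave 0.037 to 0.188, and it was called higher without replicate 1 of 3KR. The number of these genes called higher was thus 1 to 2 and lower 5 to 6 when leaving out each library. The causes of these changes were not tested, except that rescaling to the same sum or by median ratio lowers every 3KR value against WT by construction. Over all genes the calls numbered 4998 to 6964, with 5127 higher and 1535 lower as deposited, 3682 and 1989 at the same sum, 2371 and 2645 after median ratio scaling, and 3138 and 2190 after quantile normalization. Replicate numbers did not pair the libraries: deviations of same-numbered libraries correlated at -0.01, 0.03 and -0.03. With the replicate number as a block 6425 genes were called, and the calls of the 8 genes were as without it (Jun -0.10, limma adjusted p = 0.1036). With the depth unknown, the counting error of genes under 1 FPKM cannot be given. Among these are Fosb, Atf3, Egr3 and Egr4 in every library, and Egr2 in 3KR.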
